A study of Polypedilum vanderplanki with 72 samples.

Results

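After 6 h of heat shock, 102 of 17156 genes stood apart in the Pv11 lines that carry a Drosophila form of HSF1, 29 higher and 73 lower than in all other lines of the series. A gene was taken when the mean level plus 0.5, in CPM (counts per 1000000 counts in genes), was at least 1.5 times, or at most 0.67 times, that of each of 7 other genotypes in both Drosophila lines. A mean of 5 CPM or more in any heat-shock group was also required, which 7039 genes met, so the rule took 0.412% of them as higher and 1.04% as lower. The genes were thus chosen by their heat-shock levels, which are given below as a description with no test, and tests were run on the trehalose and rehydration libraries, which the rule did not use. The 29 are called the high genes and the 73 the low genes throughout, also where another treatment shows them otherwise.

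All 72 libraries were polyA RNA of Pv11, a line of cultured cells derived from Polypedilum vanderplanki, the sleeping chironomid, whose larvae outlive almost complete drying. The genotypes were wild type (WT), cells with HSF1 knocked out (KO), and lines that overexpress a single HSF1 form in the KO cells: the isoforms V1, V2, V3, V4 and V5-6, Drosophila HSF1a (Dma) and Drosophila HSF1b (Dmb). All 9 genotypes were taken after heat shock for 6 h (HS6h) and after trehalose at 600 mM for 48 h (T48). WT and the V lines were also taken 24 h after rehydration that followed 11 days of desiccation (R24). The labels give trehalose at 600 mM for the R24 libraries too. Each of the 24 groups had 3 libraries. Neither Drosophila line was measured at R24, and no group was untreated. The labels do not say whether trehalose was present during the heat shock, so a difference between HS6h and T48 joins heat with whatever else differed. The labels speak of clonal lines and give a single line for each HSF1 form, so the form and the clone cannot be told apart in any comparison here; the promoter behind each form is not given in the sources used here. Nothing in the labels says that the 3 libraries of a group came from separate cultures, and p-values then measure the spread between these libraries, which may be technical. The RNA is from whole cultures, in which fewer cells of a kind and less RNA per cell cannot be told apart.

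Heat shock factor 1 (HSF1) is held inactive in resting cells and, after heat or other damage to proteins, binds heat shock elements in DNA as a trimer and switches on chaperone genes. Insects make several splice forms of it from a single gene, and in the sleeping chironomid it is known as a regulator of genes induced on drying. Pv11 cells tolerate drying after they have been held in trehalose, the sugar that the larvae accumulate. The genes here carry only gene numbers: the deposited table does not pair them with names, and none matched the reference list of named genes. They are therefore described by level and pattern, no chaperone or other gene group could be counted, and the knocked-out gene could not itself be read as a check of the labels.

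The libraries held from 3043636 to 5091075 counts in genes at T48, from 4374617 to 7199241 at HS6h and from 4951847 to 8808472 at R24. These are counts of the single transcript row kept for each gene, a small part of the counts in all transcript rows. Within a group the libraries correlated at a mean r of at least 0.9777. At T48 the Drosophila libraries differed from the others in composition: scaling by edgeR's TMM factors raised them by 0.26 on the log2 scale relative to column sums, where the shift at HS6h was 0.03. Levels below are CPM by column sum, and log2 differences with an error are TMM-scaled edgeR fits, so the scales differ by that shift at T48.

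At HS6h the high genes were mostly of modest level and the low genes somewhat higher. The highest group mean of a high gene had a median of 20.8 CPM and ran from 5.54 to 6981 CPM, with 14 of 29 under 20 CPM and 3 at 100 CPM or more. For the low genes the median was 33.4 CPM and the range 5.43 to 3340 CPM, with 22 of 73 under 20 CPM and 20 at 100 CPM or more. Relative to WT, the median log2 difference of the high genes was 1.49 in Dma and 1.43 in Dmb, and that of the low genes -1.02 in Dma and -1.08 in Dmb. The median of Dmb minus Dma was 0.09 over the high genes and -0.09 over the low genes, with a range of -1.33 to 1.46 and of -2.41 to 1.62, in libraries in which the rule asked both lines to lie on the same side. Of the high genes 1 was at least 2-fold higher and 2 at least 2-fold lower in Dmb than in Dma, and the same counts, 1 and 2, held for the low genes.

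The high gene furthest from the others was g16654. At HS6h it had 22.8, 19.1 and 16.2 CPM in the 3 Dma libraries and 28.2, 22.1 and 24.0 CPM in the Dmb libraries. The 21 libraries of the other genotypes ran from 0 to 4.84 CPM with a median of 2.55 CPM, lowest in KO at 0.406 ± 0.391 CPM (SD, n = 3) and V4 at 0.416 ± 0.568 CPM and highest in V3 at 3.70 ± 0.518 CPM. No other library reached the Drosophila lines, and KO and V4 held 7 and 6 counts in all, so the order of those lowest groups is within counting error. Next was g15097, with 16.5, 17.2 and 18.4 CPM in Dma and 15.0, 7.57 and 9.42 CPM in Dmb, against 0.371 to 4.61 CPM with a median of 1.12 CPM elsewhere. Again no other library reached the lowest Drosophila library, though the Dmb libraries spread over about a 2-fold range.

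The most abundant high gene, g2254, was singled out after its values were seen. At HS6h it had 7201, 6549 and 7192 CPM in Dma and 7346, 5431 and 6183 CPM in Dmb. WT, V1, V2 and V3 formed a middle band, from 2224 ± 97.9 CPM in V2 to 2828 ± 51.1 CPM in V1. V5-6 at 731 ± 16.8 CPM, KO at 649 ± 13.7 CPM and V4 at 421 ± 25.8 CPM lay below it. The levels therefore fell into an upper pair of Drosophila lines, the WT band and a lower group around KO, with no overlap between libraries of these 3 tiers while the libraries of Dma and Dmb overlapped.

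**Figure D1:**
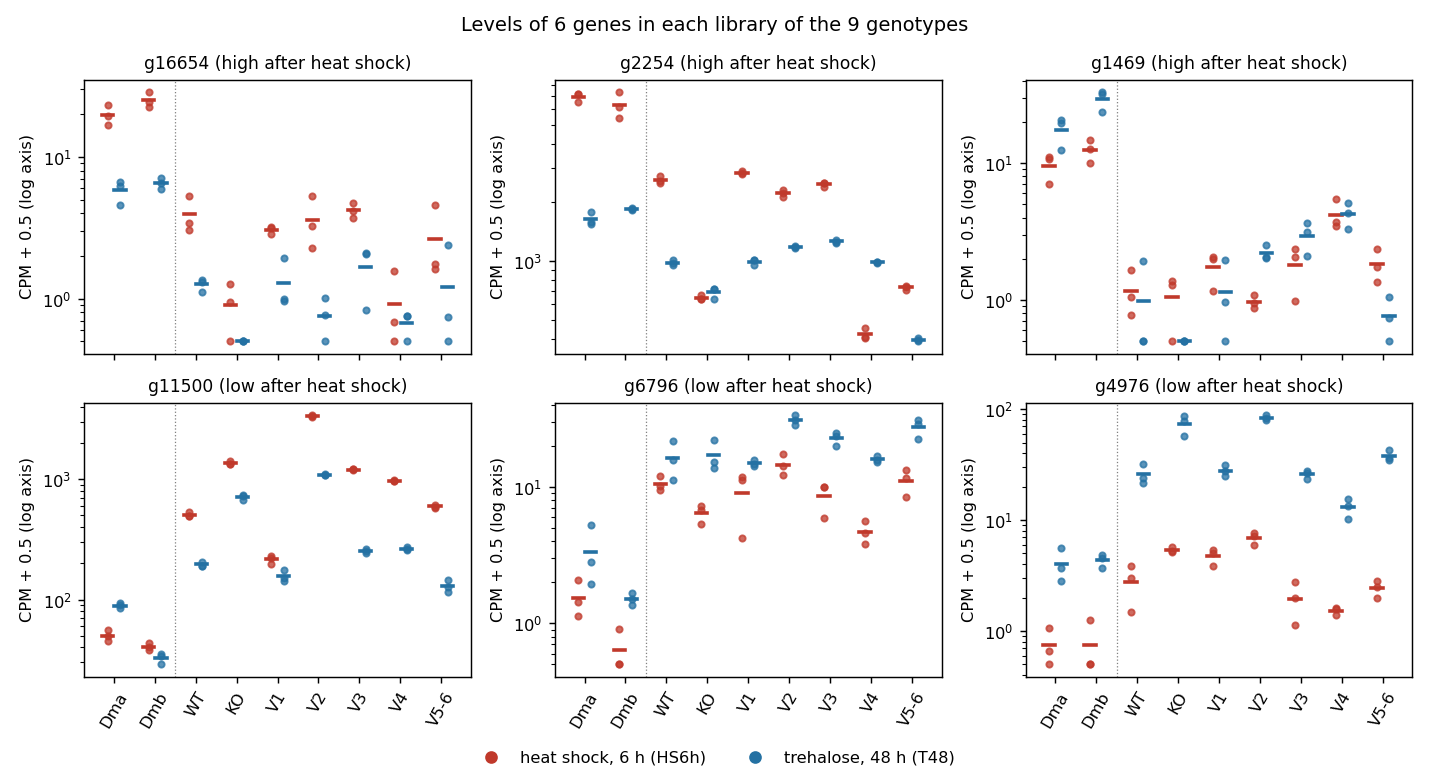
Level of 3 high and 3 low genes in each library, as CPM + 0.5 on a log axis, by genotype; points are libraries, short bars the means of 3, red heat shock and blue trehalose, and the dotted line parts the Drosophila lines from the rest. In g2254 KO, V4 and V5-6 lie lowest after heat shock, g1469 is high in the Drosophila lines in both treatments, and g4976 is lower after heat shock than in trehalose in every genotype.

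Among the low genes g11500 and g10155 were the furthest apart. In g11500 the HS6h libraries had 54.9, 49.0 and 44.5 CPM in Dma and 37.6, 42.9 and 39.7 CPM in Dmb, against 195.7 to 3409 CPM with a median of 967 CPM in the others. V2 was highest at 3340 ± 66.1 CPM, then KO at 1370 ± 43.2 CPM, V3 at 1203 ± 18.2 CPM, V4 at 970.4 ± 11.7 CPM, V5-6 at 593.6 ± 20.4 CPM, WT at 504.7 ± 21.0 CPM and V1 at 215 ± 17.5 CPM. No neighbours in that order overlapped in their libraries, so the other genotypes also differed among themselves, and every library of Dma was above every library of Dmb. The gene g10155 is at the lower end of what these depths can read: it had 0.503 ± 0.164 CPM in Dma, 0.193 ± 0.188 CPM in Dmb and 2.26 to 8.01 CPM, with a median of 4.31 CPM, in the others, and Dma and Dmb held 10 and 3 counts in all.

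Near the thresholds the sets shade into the rest of the genes. The high gene with the smallest margin was g602, whose nearer Drosophila line was 1.51 times the nearest other genotype, and the gene just outside was g10516 at 1.49 times. On the low side g3389 was just inside at 0.6682 times and g2450 just outside at 0.6702 times. With limits of 2 and 0.5 in place of 1.5 and 0.67, 30 genes remained, 10 high and 20 low. How a gene's level was read mattered as much: each gene was represented by its transcript with the highest total, and when all transcript rows of a gene were summed, 35 genes passed, of which 28 were among the 102.

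The other genotypes did not order the high and low genes alike. Over the low genes KO was the highest of the 7 in 32 genes and V1 in 23, while WT was the lowest in 25, V4 in 19 and V3 in 14. KO had at least 2 times the WT level in 14 low genes and at most 0.5 times in none of the 73, and its median log2 difference from WT was 0.75. Over the high genes V4 was the highest of the 7 in 10 and V1 in 9, and V2 was the lowest in 9. KO had at most 0.5 times the WT level in 8 high genes, g16654 and g2254 among them, at least 2 times in 1, g16898, which is named because it was alone, and lay between in 20. All of these are counts at HS6h in libraries that chose the genes. The same counts were not made over all genes, so whether these orders are particular to the high or low genes was not tested.

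Whether the genes were also set apart in trehalose, a treatment of its own and not the state before heat, was asked in the T48 libraries. Under the same rule at T48, 6 of the 29 high genes passed as higher and 6 of the 73 low genes as lower, and none passed in the opposite direction. Over all 7413 genes of 5 CPM or more at T48 the rule took 0.324% as higher and 1.47% as lower. At that level 25 high and 50 low genes were measured. With TMM-scaled CPM 15 of the 102 passed, and the genes passing over the whole table turned from 24 higher and 109 lower to 58 higher and 27 lower, so the balance of directions at T48 hangs on the scaling.

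In the test of the mean of Dma and Dmb against the mean of the 7 others at T48 (edgeR's quasi-likelihood test, adjusted p under 0.05 by Benjamini-Hochberg over 8255 genes), 23 of 28 high genes tested were higher and none was lower, and 35 of 59 low genes tested were lower and 5 higher. Over all genes tested 27.6% were higher and 24.0% lower. The median log2 difference was 1.28 for the high genes, with a range of -0.12 to 5.36, and -0.46 for the low genes, with a range of -3.23 to 1.74, against -0.01 over all genes. Of the genes tested 5 high and 19 low genes did not pass in either direction. A single high gene, g2259, and 14 low genes had too few counts at T48 to be tested. Some genes were tested only because 1 side of the contrast was high: 24 high and 49 low genes had enough counts on both sides, and of these 20 high genes were higher, none lower, and 32 low genes were lower and 5 higher. Each side was filtered as a whole, so a gene could pass where some genotypes of that side were near 0.

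**Figure D2:**
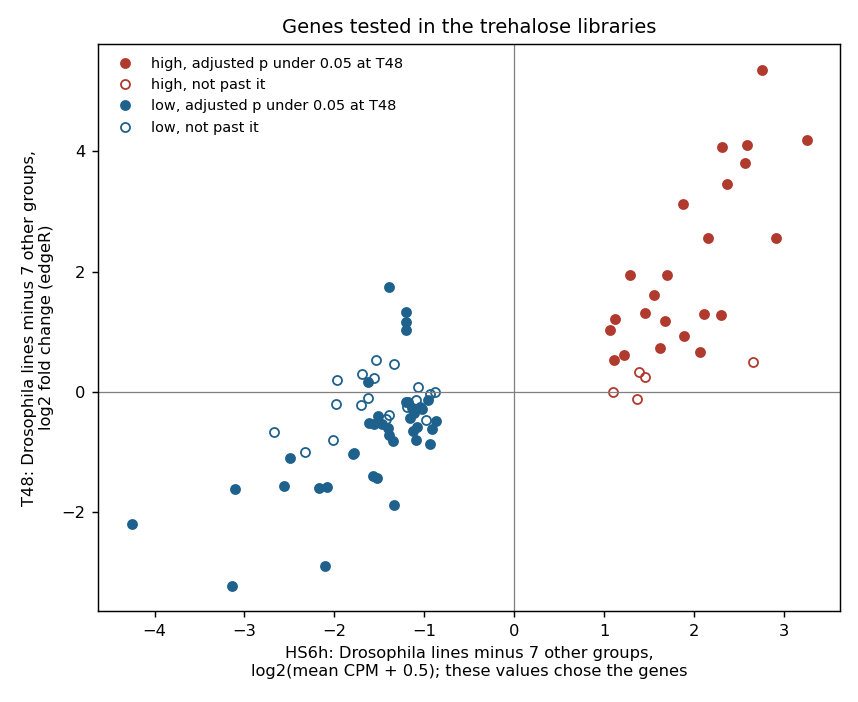
Each point is a high (red) or low (blue) gene with a test at T48; the horizontal axis gives the log2 difference of the Drosophila lines from the 7 others at HS6h, which chose the genes, and the vertical axis the edgeR log2 fold change of the same contrast at T48. Filled points passed an adjusted p of 0.05: 23 high genes lie above 0, 35 low genes below it and 5 low genes above it.

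The largest T48 difference among the high genes was in g1469. It had 20.0, 19.0 and 11.9 CPM in Dma and 32.4, 22.9 and 31.2 CPM in Dmb. The 21 other libraries ran from 0 to 4.65 CPM with a median of 1.44 CPM, highest in V4 at 3.78 ± 0.914 CPM, and KO had 0 counts. The groups did not overlap, and the log2 difference was 5.36 (SE 0.23, edgeR adjusted p 1.56e-43), a fitted value that depends on the prior count because of the genotypes at or near 0. At HS6h the gene had 9.09 ± 2.23 CPM in Dma and 11.9 ± 2.32 CPM in Dmb, below its T48 level in both lines.

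The gene g16654 followed at T48 with 6.20, 5.77 and 4.05 CPM in Dma and 6.09, 5.48 and 6.63 CPM in Dmb, against 0 to 1.91 CPM with a median of 0.329 CPM in the other libraries. All Drosophila libraries were above all others, and KO had 0 counts in its 3 libraries. The log2 difference was 4.19 (SE 0.39, edgeR adjusted p 2.71e-18), again dependent on the prior count, and the gene had enough counts for the test only in the Drosophila libraries, in which it is high. For g2254 the T48 levels were 1639 ± 134 CPM in Dma and 1855 ± 21.7 CPM in Dmb, against 386.5 to 1279 CPM elsewhere with a median of 987 CPM. Here V5-6 was the lowest at 394 ± 8.39 CPM and KO next at 693 ± 47.5 CPM, and the log2 difference was 1.27 (SE 0.03, edgeR adjusted p 1.29e-71).

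Of the low genes g6796 and g4976 differed most at T48. The gene g6796 had 4.79, 1.44 and 2.31 CPM in Dma and 1.18, 0.996 and 0.856 CPM in Dmb, and 10.8 to 33.0 CPM with a median of 19.4 CPM in the other genotypes. The groups were apart, with V2 the highest at 30.5 ± 2.54 CPM, and the log2 difference was -3.23 (SE 0.20, edgeR adjusted p 5.12e-30), though only the other genotypes, in which it is high, had enough counts to bring it into the test. The gene g4976 had 5.07, 2.31 and 3.18 CPM in Dma and 4.32, 3.24 and 4.06 CPM in Dmb against 9.76 to 87.8 CPM with a median of 30.6 CPM. V4 came closest at 12.5 ± 2.59 CPM, V2 at 83.4 ± 3.93 CPM and KO at 73.6 ± 15.2 CPM were the highest, and the log2 difference was -2.91 (SE 0.14, edgeR adjusted p 5.98e-39). The gene furthest apart at HS6h, g11500, had at T48 88.5 ± 4.18 CPM in Dma and 32.2 ± 3.35 CPM in Dmb, with V5-6 nearest at 128 ± 14.5 CPM, and a log2 difference of -2.20 (SE 0.05, edgeR adjusted p 1.48e-71).

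Each Drosophila line was also tested by itself. Dma alone was higher than the mean of the 7 others in 23 high genes and lower in 31 low genes, where 23.1% and 18.0% of all genes were called. Dmb alone was higher in 24 high genes and lower in 33 low genes, where 25.0% and 20.0% were called. In the other direction 5 low genes were higher in Dma and 3 in Dmb, and no high gene was lower in either. Against WT alone 17 high genes were higher and 30 low genes lower in Dma, with 14.6% and 13.5% of all genes called, and 18 and 36 in Dmb, with 16.5% and 15.3%; no member was called the other way. Against KO, the cells in which the forms are expressed, 20 high genes were higher and 34 low genes lower in Dma (19.8% and 18.7% of all genes), and 22 and 39 in Dmb (21.1% and 19.2%), while 2 low genes were higher in Dma and 1 low gene higher and 1 high gene lower in Dmb. Among the 24 high and 49 low genes with enough counts on both sides, the calls in the direction of HS6h were 20 and 28 for Dma and 21 and 32 for Dmb against the 7 others. For these genes they were 14 and 25 for Dma and 15 and 30 for Dmb against WT. Against KO they were 17 and 28 for Dma and 19 and 33 for Dmb. The filter took the 7 other genotypes together, so genes near 0 in WT or KO alone remain among them, such as g1469 with 0 counts in KO. These comparisons share the Drosophila or the other libraries, so they are not separate evidence.

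Across the 14 pairs of a Drosophila line and another genotype at T48, the number of high genes called higher ran from 14, in Dma against V3, where 17.3% of all genes were higher, to 23, in Dmb against V2, where 26.9% were. The number of low genes called lower ran from 17, in Dma against V3, where 14.6% of all genes were lower, to 39, in Dmb against KO, where 19.2% were. In these same pairs, the genes with enough counts on both sides, as filtered above, gave 12 and 20 high genes and 16 and 33 low genes. That filter was not applied to each pair, so a gene could still be near 0 in the genotype compared. In the other direction up to 9 low genes were called higher, in Dma against V1, where 21 low genes were lower and 16.8% of all genes were higher and 15.6% lower, and at most 1 high gene was called lower. Both lines passed against each of the 7 genotypes in 9 high genes and in 7 low genes, where 1.78% of all genes tested were higher and 0.896% lower in this way. Of these, 7 high and 6 low genes had enough counts on both sides, g16654 being a high gene that entered through the Drosophila libraries alone and g6796 a low gene that entered through the others alone. Libraries of the Drosophila lines were all above all 21 others in 8 of the 25 high genes measured at 5 CPM or more, and all below them in 12 of the 50 low genes, against 0.782% and 4.47% of all genes; these counts are on column-sum CPM.

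**Figure D3:**
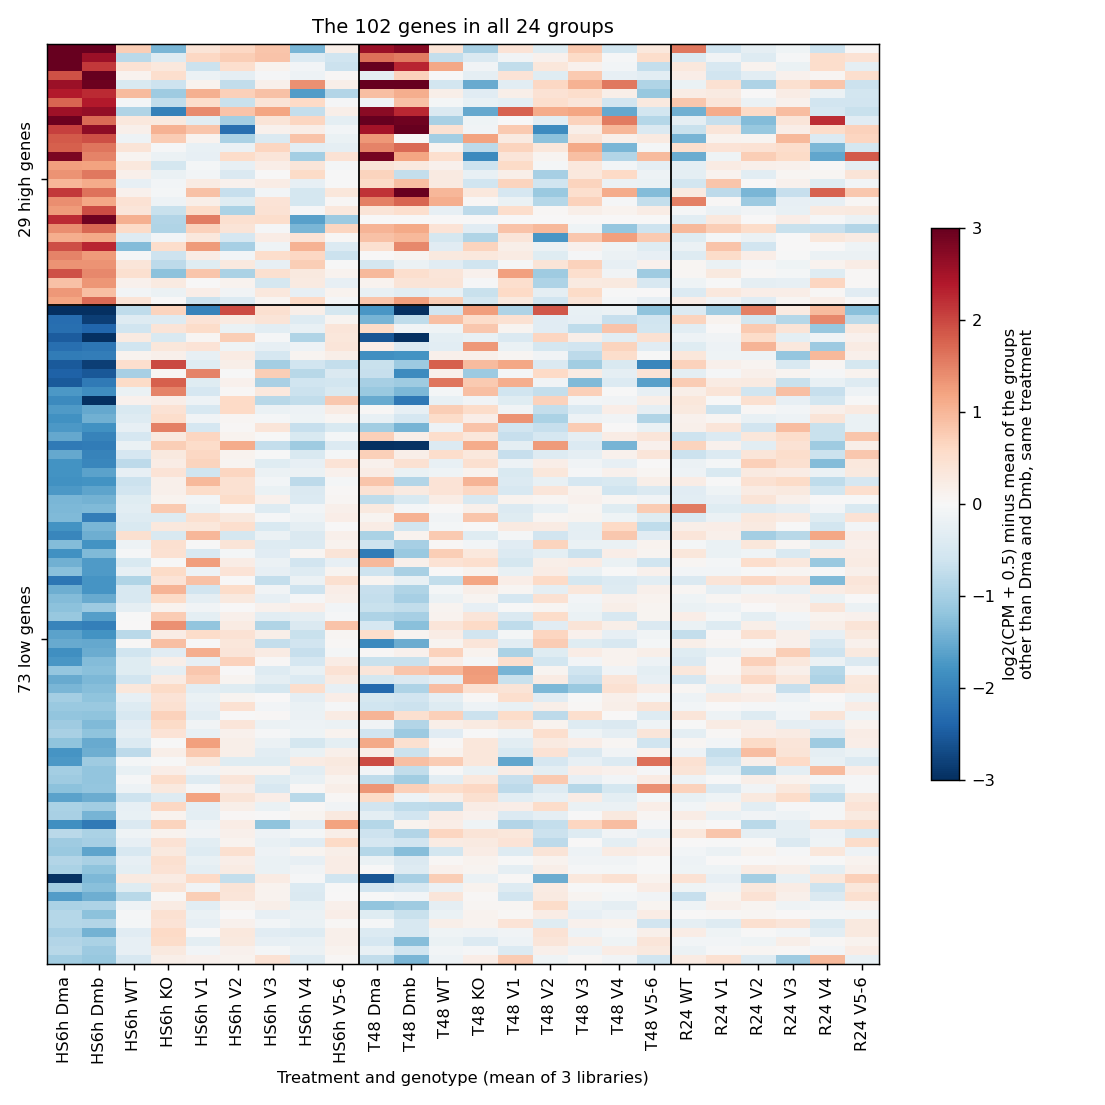
The 29 high and 73 low genes in rows and the 24 groups in columns, each cell the log2 of mean CPM + 0.5 minus the mean of the groups other than Dma and Dmb under the same treatment, with red above and blue below. At HS6h the colours of Dma and Dmb are set by the rule; at T48 most high genes keep their colour in these lines, and among the low genes some are blue, some pale and a few red.

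The 5 low genes that went the other way in trehalose were g11541, g7411, g11371, g12904 and g14357, all named because they were few. For g11371 the T48 levels were 26.2 CPM in Dma and 18.1 CPM in Dmb against group means of 7.16 CPM in V2 to 21.4 CPM in WT, with overlapping libraries and a log2 difference of 1.03 (SE 0.13, edgeR adjusted p 2.57e-12). After heat shock the same gene had 2.21 ± 0.934 CPM in Dma and 2.17 ± 1.19 CPM in Dmb, below all 7 group means. The difference for g11541 was 0.15 (SE 0.05, adjusted p 0.00621) and that for g7411 was 1.15 (SE 0.38, adjusted p 0.00767) in the same edgeR fit.

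The largest differences of that kind were in g12904 and g14357, and both had single libraries far from their groups. At T48 g12904 had 39.1, 53.9 and 72.3 CPM in Dma and 18.7, 26.9 and 32.9 CPM in Dmb. The other genotypes ran from 1.71 to 109.7 CPM with a median of 12.2 CPM, the highest being a single V5-6 library at 109.7 CPM where the others of that group had 6.55 and 16.4 CPM. Its log2 difference was 1.74 (SE 0.35, edgeR adjusted p 3.21e-04). The gene g14357 had a log2 difference of 1.32 (SE 0.34, edgeR adjusted p 0.00276) and the same V5-6 library at 134.8 CPM against 13.1 and 14.5 CPM in the others. In both genes the libraries overlapped between the groups, and 1 V4 library at HS6h was also far above the rest, with 386.7 CPM against 133 and 141 CPM in g12904 and 357.9 CPM against 116 and 114 CPM in g14357. With any 1 T48 library left out the T48 difference stayed past the threshold in both, at 1.60 to 2.01 in g12904 and 1.15 to 1.60 in g14357.

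Heat shock and trehalose were compared within each genotype as a description, since the choice of genes fixes part of it. The median over the low genes lay above 0 in every genotype and nearest to 0 in the Drosophila lines, where single genes went either way. The median log2 of HS6h over T48 was 0.05 ± 0.05 in Dma and 0.02 ± 0.06 in Dmb (SD over the 3 HS6h libraries), against 0.56 ± 0.05 in WT, 1.03 ± 0.04 in KO, 0.65 ± 0.02 in V1, 1.08 ± 0.14 in V2, 1.02 ± 0.03 in V3, 0.48 ± 0.10 in V4 and 1.08 ± 0.10 in V5-6. The high genes had medians of 0.51 ± 0.06 in Dma and 0.75 ± 0.07 in Dmb and between -0.38 in V1 and 0.14 in V5-6 elsewhere. Over all 7677 genes of 5 CPM or more in either treatment the medians ran from -0.65 in V1 to -0.11 in Dmb. A level 2-fold or more above that of T48 was seen at HS6h in 28 of the 73 low genes in WT, 39 in KO, 16 in Dma and 20 in Dmb, and a level 2-fold or more below it in 8, 5, 11 and 13. Of the 29 high genes 4 in WT, 4 in KO, 11 in Dma and 12 in Dmb were higher by that measure, and 7, 6, 5 and 7 lower. Over the 7677 genes 386 were higher and 2110 lower in WT, 705 and 1726 in KO, 537 and 1540 in Dma, and 808 and 1541 in Dmb.

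**Figure D4:**
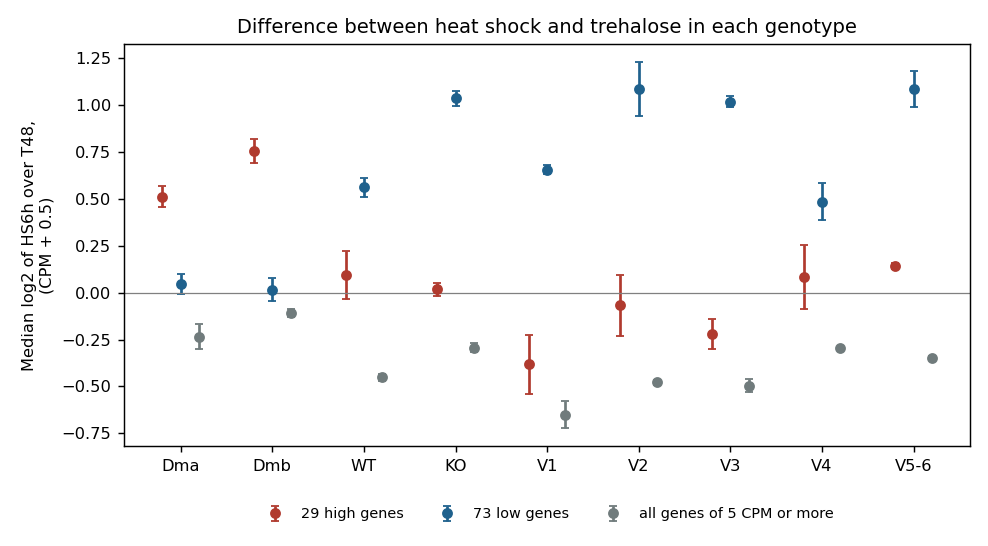
Median log2 of HS6h over T48 in CPM + 0.5 for the high genes, the low genes and all genes of 5 CPM or more, by genotype; bars are the SD over the 3 HS6h libraries against the T48 mean. The low genes lie at 0.05 and 0.02 in Dma and Dmb and between 0.48 and 1.08 in the other genotypes, and the high genes lie above all other genotypes in Dma and Dmb.

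The high gene with the largest excess of HS6h over T48 in WT was g2259, which no T48 library of any genotype held a count of. At HS6h it had 8.37, 15.0 and 19.8 CPM in Dma, 25.9, 22.5 and 21.3 CPM in Dmb and 5.41, 5.83 and 6.93 CPM in WT. KO, V4 and V5-6 were lowest at 1.20 ± 0.114, 0.520 ± 0.472 and 0.973 ± 0.278 CPM. Set against a floor of 3 counts over the 3 T48 libraries of a group, the level at HS6h was at least 21.0-fold higher in WT, at least 50.4-fold in Dma, at least 107-fold in Dmb and at least 5.19-fold in KO. The gene was thus higher at HS6h than at T48 in cells without HSF1 too, at a lower level than in WT. Dma was the nearer of the Drosophila lines to the others, and its lowest library lay among those of V1, which had 8.39, 10.2 and 7.05 CPM.

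The low gene with the largest excess of HS6h over T48 in WT was g7409, with 0.865, 0.311 and 1.62 CPM at T48 and 16.5, 16.1 and 15.1 CPM at HS6h. In KO it had 1.29 ± 0.179 CPM at T48 and 21.1 ± 2.68 CPM at HS6h, and in V1 0.626 ± 0.348 and 50.8 ± 2.23 CPM. At T48 the Drosophila lines lay at the same low level or slightly above, 2.58 ± 1.04 CPM in Dma and 1.47 ± 0.243 CPM in Dmb. At HS6h they had 8.96 ± 2.19 and 7.12 ± 1.29 CPM. The gene was thus higher at HS6h than at T48 in all 9 genotypes. That the difference was smallest in the Drosophila lines follows in part from the rule, which asked for low HS6h levels there. The members that were lowest at HS6h relative to T48 in WT were the high gene g4830, with 52.3 ± 2.71 CPM at T48 and 0.610 ± 0.428 CPM at HS6h, and the low gene g4976, with 25.4 ± 5.41 and 2.29 ± 1.20 CPM. In the Drosophila lines g4830 was also far lower at HS6h than at T48, with 3.43 ± 1.04 against 51.2 ± 3.37 CPM in Dma and 5.54 ± 0.453 against 101 ± 4.98 CPM in Dmb. At HS6h the libraries of the other genotypes reached at most 1.85 CPM, while at T48 they reached 84.5 CPM and Dma lay among them.

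Several low genes had neighbouring numbers. The runs described here were picked after the values were seen, and the deposited table does not tie numbers to positions in the genome. Between g7400 and g7436 the table holds 34 genes, 15 of them at 5 CPM or more in a heat-shock group, and 12 of the 15 were low genes; g7409 is among them. Of the other 3, 2 also had both Drosophila means below all 7 others. Summed over the 12 genes the HS6h level was 71.2, 59.4 and 54.8 CPM in Dma and 64.6, 58.2 and 56.3 CPM in Dmb, against 124 ± 4.55 CPM in WT, the lowest of the others, and 380 ± 10.9 CPM in V1, the highest. At T48 all 9 genotypes lay between 18.0 ± 1.19 CPM, in Dmb, and 34.3 ± 5.71 CPM, in V2, and Dma at 27.4 ± 5.45 CPM lay among the others. In WT and in KO 10 of the 12 genes had 2-fold or more of their T48 level at HS6h. The rule that chose these genes sets the summed HS6h means of the Drosophila lines below all others, so that order is no separate result. In trehalose their sums overlapped with those of the other genotypes, and 4 of the 12 genes had enough counts for a test. The only 1 of the 12 at 5 CPM or more in a T48 group was g7414. The mean of the Drosophila lines was lower there than that of the 7 others, with a log2 difference of -1.10 (SE 0.17, edgeR adjusted p 5.44e-09). Libraries overlapped, and Dma at 8.79 CPM was above KO at 6.58 CPM. In WT g7414 was lower at HS6h than at T48, with a log2 ratio of -2.25, so it does not stand for the run. Another tested gene of the run, g7411, was higher in the Drosophila lines at T48, with a log2 difference of 1.15 (SE 0.38, edgeR adjusted p 0.00767).

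The second run is g6756 to g6808. It holds 50 genes, 21 of them at 5 CPM or more in a heat-shock group, and 7 of the 21 were low genes, g6796 among them. Of the other 14, 5 also had both Drosophila means below all 7 others. Their summed level at HS6h was 19.9 ± 0.922 CPM in Dma and 10.9 ± 2.86 CPM in Dmb against 62.1 ± 2.98 CPM in V3 to 141 ± 19.3 CPM in V5-6. At T48 it was 17.0 ± 4.26 CPM in Dma and 9.84 ± 1.14 CPM in Dmb against 41.0 ± 1.39 CPM in V1 to 85.3 ± 7.91 CPM in V2. In these sums no library of either Drosophila line reached a library of the other genotypes at T48. The same held at HS6h, where the rule that chose the genes sets the order of the means. The T48 sum is carried by g6794 and g6796, the only 2 of the 7 at 5 CPM or more in a T48 group. In g6794 the T48 libraries had 14.1, 8.94 and 9.26 CPM in Dma and 6.87, 6.97 and 6.42 CPM in Dmb against 21.4 to 55.8 CPM elsewhere, and the log2 difference was -1.62 (SE 0.12, edgeR adjusted p 5.25e-24). In the other 5 genes, g6756, g6759, g6760, g6804 and g6808, the libraries overlapped at T48.

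**Figure D5:**
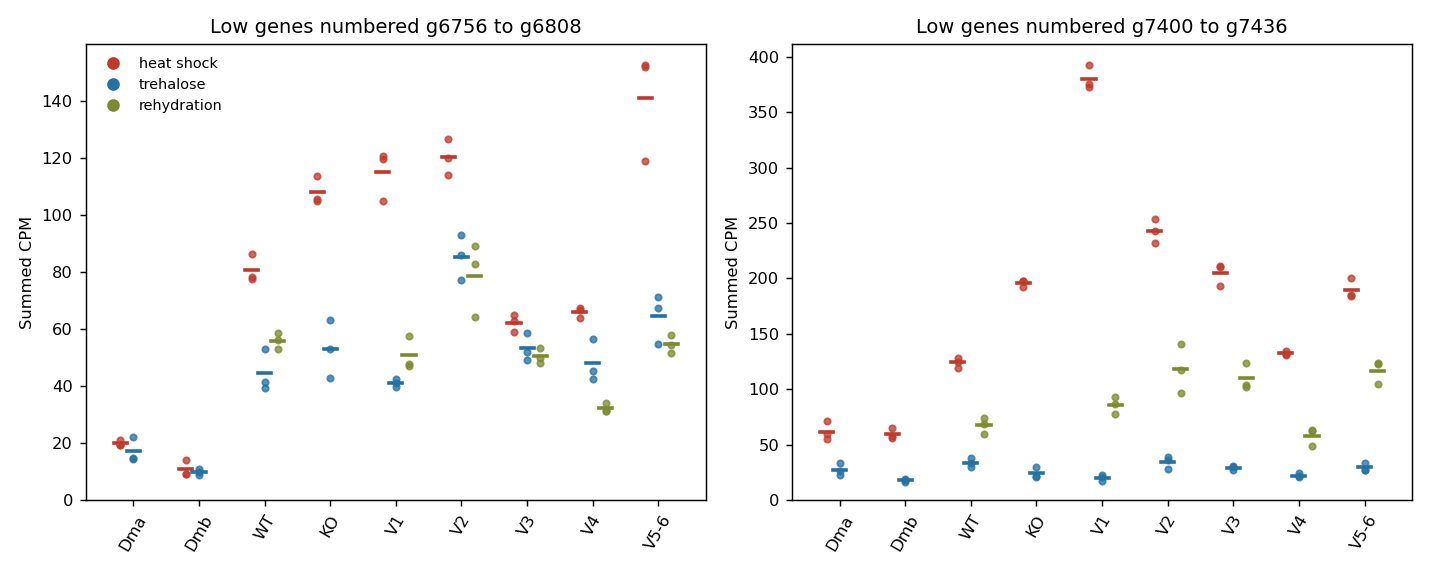
Summed CPM of the 7 low genes numbered g6756 to g6808 and of the 12 numbered g7400 to g7436, by genotype and treatment; points are libraries and short bars the means of 3. The sum over the 7 genes is lowest in Dma and Dmb in both treatments, carried at T48 by g6794 and g6796, and the sum over the 12 genes lies below all other genotypes in them after heat shock, with V1 highest at 380 CPM. The low HS6h means of Dma and Dmb are set by the rule that chose the genes.

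Some of these genes may share reads, and the strand setting of the counting is not given in the sources used here. The counts of g7410 and g7416 were equal in 56 of 72 libraries, and their summed absolute difference was 1.10% of the mean of both totals. By the same measure those of g11882 and g11883 differed by 5.46%, those of g7409 and g7415 by 17.6% and those of g13939 and g13940 by 32.2%. Whether such pairs are separate genes or share reads cannot be told apart here, and their values are not separate evidence. The genes g7409, g7410, g7415 and g7416 all belong to the run from g7400 to g7436. Its sums and its count of low genes may therefore hold the same reads more than once.

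Dma and Dmb also differed from each other at T48. Of the high genes tested 8 were higher and 3 lower in Dmb, and of the low genes 4 were higher and 10 lower, 25 genes in all, where 11.6% of all genes were higher and 8.93% lower. The low genes g5528 and g12848 had the largest differences upward and the high genes g10737 and g13780 downward. In g5528 the Dma libraries had 1.69, 4.32 and 3.47 CPM and the Dmb libraries 9.43, 12.7 and 9.20 CPM, apart from each other, with a log2 difference of 1.81 (SE 0.31, edgeR adjusted p 1.10e-06). In g10737 they had 19.7, 28.8 and 22.3 CPM in Dma and 4.52, 6.97 and 9.20 CPM in Dmb, also apart, with a log2 difference of -1.67 (SE 0.35, edgeR adjusted p 6.70e-05). That call was lost when transcript rows were summed (edgeR adjusted p 0.0679). For g10737 the HS6h levels were 31.7 ± 4.96 CPM in Dma and 12.3 ± 2.66 CPM in Dmb, and in g5528 they were 2.92 ± 0.899 and 9.99 ± 1.82 CPM, the same order as at T48. Without the third Dmb library the count fell from 25 to 16 genes.

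Whether the genes depend on the endogenous HSF1 in trehalose was asked by comparing KO with WT, with no Drosophila library in the contrast. Of the 28 high genes tested 11 were lower in KO and 2 higher, where 15.0% of all genes were lower and 13.4% higher. Of the 59 low genes tested 15 were higher and 6 lower. The median log2 difference was -0.47 over the high genes and 0.11 over the low genes, against -0.01 over all genes (edgeR's quasi-likelihood test as above). The filter for this test took all genotypes in trehalose together, so a gene could enter without enough counts in WT or KO. The high genes g16654, g15097 and g16656 entered through the Drosophila libraries alone. Of the high genes 15 had enough counts in the WT libraries by themselves, and KO held 0 counts of g16654, g1469 and g16077. Calls among genes with enough counts in both WT and KO were not counted, so the calls may include genes near 0. The abundant high gene g2254 was among those lower in KO, with 972, 1014 and 953 CPM in WT and 638, 721 and 719 CPM in KO, and a log2 difference of -0.45 (SE 0.06, edgeR adjusted p 3.64e-11).

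The largest differences upward in KO were in the high gene g13787 and the low gene g11500. In g13787 the T48 libraries had 1115, 1019 and 1035 CPM in KO and 253, 217 and 208 CPM in WT, far apart, with a log2 difference of 2.27 (SE 0.07, edgeR adjusted p 2.66e-60). At HS6h the same gene had 1776 ± 36.4 CPM in KO, 955.3 ± 48.4 CPM in WT, 3778 ± 118 CPM in Dma and 4011 ± 125 CPM in Dmb, so it was above WT both without HSF1 and with the Drosophila forms. In g11500 the T48 levels were 737, 676 and 730 CPM in KO and 205, 191 and 190 CPM in WT, also apart, with a log2 difference of 1.92 (SE 0.07, edgeR adjusted p 1.11e-50). That gene was above WT in KO and below it in the Drosophila lines, under both treatments.

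Lower in KO at T48 were the low genes g11371 and g7414. In g11371 the KO libraries had 6.83, 9.79 and 7.50 CPM and the WT libraries 25.4, 17.4 and 21.3 CPM, with a log2 difference of -1.38 (SE 0.25, edgeR adjusted p 1.95e-06). In g7414 they had 6.12, 6.53 and 7.11 CPM in KO and 21.6, 12.8 and 14.6 CPM in WT, with a log2 difference of -1.26 (SE 0.26, edgeR adjusted p 4.48e-05). The groups did not overlap in either gene. After heat shock the order was the other way in both, 9.58 ± 2.39 CPM in KO and 3.97 ± 0.895 CPM in WT for g11371, and 6.90 ± 0.507 and 3.05 ± 0.785 CPM for g7414.

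How the genes behave when wild-type cells are dried and rehydrated was read from R24 against T48 in WT, in a fit of all 45 T48 and R24 libraries. All 73 low genes and 28 high genes entered this test. Higher at R24 were 40 low genes and 15 high genes and lower were 7 of each, where 27.9% of the 8867 genes tested were higher and 27.5% lower. Many of these entered only through the group in which they were high: 51 low and 15 high genes had enough counts in both WT groups, and of these 27 low genes were higher and 7 lower, and 7 high genes were higher and 6 lower. The median log2 of R24 over T48 in CPM + 0.5 was 0.88 over the low genes in WT, and from 0.84 in V4 to 1.33 in V3 in the V lines, against 0.08 to 0.32 over all genes in those 6 genotypes. For the high genes it was 0.71 in WT and from 0.31 in V3 to 1.01 in V5-6.

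Among the high genes g16654 rose most on rehydration, from 0.865, 0.623 and 0.809 CPM at T48 to 12.6, 8.49 and 12.3 CPM at R24, a log2 difference of 3.68 (SE 0.56, edgeR adjusted p 5.11e-08). In WT the gene had enough counts for the test at R24 only, the group in which it is high. The groups were apart, and WT at R24, at 11.1 ± 2.28 CPM, was above its own heat-shock level of 3.43 ± 1.22 CPM and above the V lines at R24, of which V5-6 was the highest at 3.44 ± 0.319 CPM. The low gene g17774 had 2.02, 2.80 and 1.08 CPM at T48 and 8.69, 71.6 and 13.1 CPM at R24, a log2 difference of 3.90 (SE 0.74, edgeR adjusted p 3.67e-05). That size rests on the second R24 library: without it the difference was 2.34, and with only both WT groups in the fit the call was lost (edgeR adjusted p 0.0897). This gene, too, had enough counts in WT at R24 only.

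Lower at R24 were g4830 and g10434. The high gene g4830 had 50.5, 55.4 and 51.0 CPM at T48 and 4.96, 5.06 and 4.15 CPM at R24, a log2 difference of -3.58 (SE 0.18, edgeR adjusted p 2.92e-29). The low gene g10434 had 783, 811 and 695 CPM at T48 and 83.5, 65.9 and 76.4 CPM at R24, a log2 difference of -3.47 (SE 0.09, edgeR adjusted p 3.27e-46). Neither gene's groups overlapped. In WT both genes were also lower at HS6h than at T48, g10434 at 127 ± 4.11 CPM.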

How the data were processed

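PolyA RNA was measured in 72 libraries, 3 per group. The authors deposited a single table of raw counts, whole numbers of reads for each of 65235 transcripts. Per the submitters' processing notes, the tools were FastQC 0.11.9, Trimmomatic 0.39, HISAT2 2.2.1 and HTSeq 2.0.9; build, annotation and strand setting are not given in the sources used here. The 5 rows that name no gene were left out. A gene was read from its transcript with the highest total, which leaves out reads assigned to other transcripts, and CPM was computed by column sum. All transcript rows together held 18.53 times the counts kept (a V4 library at R24) to 26.07 times (a V3 library at HS6h). At T48 this ratio was 22.3 to 24.38 in the Drosophila libraries and 19.52 to 21.93 in the others. Tests used edgeR 4.0.16 in R 4.3.3 (filterByExpr, TMM, quasi-likelihood F test with robust fit), fitted on all genes of the 27 T48 libraries, or of the 45 T48 and R24 libraries, with Benjamini-Hochberg adjustment and a threshold of 0.05. SE is the log2 difference over the root of F. DESeq2 1.42.0 was an alternative. The fits were tested on simulated data. There 2.76% of calls were false for the Drosophila lines against the 7 others, 8% for KO against WT and 7.8% for WT rehydration against trehalose. Changes of 1.5-fold were recovered in 74.6%, 47.8% and 35.8% of genes, in the same order. In the last 2 comparisons the share of false calls lay above 0.05. It comes from a single simulated set for each comparison, with 150 and 141 calls, so its spread is not known. Far fewer genes were changed there than were called in the data, so these shares need not carry over. Replicates differed by more than counting error in all 72 within-group pairs (variance ratio 2.21 to 15.3), so each was kept as a separate library. Depth limits genes of a few CPM; no interval for counting error is given beside an SD over libraries.

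The genes and tests were chosen with earlier results of these data known. At most 2 gene numbers per direction are named in a comparison, those with the largest changes among genes past the threshold with non-overlapping libraries and 5 CPM or more; for HS6h those with the largest margin. Genes named outside this rule are marked as such. None of the gene numbers matched the 17863 named loci of the reference list.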

Additional observations from a re-analysis of the deposited data

Results flagged for a closer look

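The Drosophila lines differ from each other by a tested difference at T48, where 25 of the 87 high and low genes tested were called in Dmb against Dma (edgeR's quasi-likelihood test), against 20.5% of all genes. The log2 difference of Dmb over Dma was 1.81 in g5528, 1.17 in g12848, -1.67 in g10737 and -1.48 in g13780. In g12848 the libraries had 4.79, 2.02 and 5.79 CPM in Dma and 11.8, 5.98 and 8.34 CPM in Dmb (SE 0.29, edgeR adjusted p 0.00106). In g13780 they had 4.79, 6.05 and 7.23 CPM in Dma and 3.14, 1.74 and 1.07 CPM in Dmb (SE 0.48, edgeR adjusted p 0.0174). The call for g13780 was lost without Dma replicate 3, Dmb replicate 2 or Dmb replicate 3 (edgeR adjusted p 0.0863, 0.0593 and 0.113), and that for g10737 with transcript rows summed (0.0679).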

How the results depend on the processing

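The membership count moved with the choices behind it: 102 genes became 30 with thresholds of 2 and 0.5 and 35 with transcript rows summed, and 97 to 112 when any 1 HS6h library was left out. It was 101 with TMM-scaled CPM (87 shared with the 102), 96 with a pseudocount of 1 and 124 with no minimum level. Leaving out 1 T48 library at a time, 56 to 59 genes were called in their HS6h direction for both Drosophila lines against the 7 others, where 58 were called with all libraries, and other settings, including near-equal pairs counted once or both number runs left out, gave 55 to 58. For Dmb against Dma 16 to 25 genes were called, 16 without Dmb replicate 3. Counts of the other comparisons stayed within 1.5 times under all alternatives run, and no direction reversed. At the same direction the call was lost for g10737 with transcript rows summed, for g13780 without Dma replicate 3, Dmb replicate 2 or Dmb replicate 3, and for g17774 with only both groups in the fit (adjusted p 0.0897); the cause was not tested. No paired analysis was possible because the labels number libraries through the whole series and give no replicate number that groups share.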
